A study of Mus musculus with 23 samples.

Results

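The 4 mature miRNAs described here are both arms of 2 neighbouring mouse miRNA hairpins, Mir191 and Mir425: mmu-miR-191-5p, mmu-miR-191-3p, mmu-miR-425-5p and mmu-miR-425-3p. They are 4 of the 1218 mature miRNAs that were counted in liver by small RNA sequencing, and they were chosen by name as the pair of one locus, with miR-425-3p chosen on its low p-value between both high-fat groups of these same mice. The 23 libraries are 1 each from 23 male C57bl/6J mice of the F3 generation, killed after fasting. The 8 reference mice came from a control lineage, whose growing diet held 1% high-oleic sunflower oil, and were then fed a low-fat diet in which fat gave 10% of the energy. The 8 HFoleic mice came from the same control lineage and were fed a diet high in fat and sucrose, in which fat gave 45% of the energy. The 7 HFepa mice came from an omega 3 lineage, whose growing diet held 1% of a fish oil rich in eicosapentaenoic acid (EPA), and received that high-fat diet too. Each final diet lasted 17 weeks. A low-fat group of the omega 3 lineage was not analysed here, so diet and lineage differ together between HFepa and reference.

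A miRNA hairpin is cut by Dicer into a short duplex of its 5′ and its 3′ arm (5p and 3p). As a rule one arm, the guide, is kept in an Argonaute protein and pairs with messenger RNAs through its seed, while the other, the passenger, is degraded, so both arms come from the same precursor but differ in level. miR-191-5p and miR-425-5p are the guide arms of this locus; both occur in most tissues and are often used as reference miRNAs in qPCR assays, which makes their stability under a diet a question of its own.

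The mature sequences of all 4 arms, from RefSeq on GRCm38.p6, are given 5′ to 3′ with the seed (bases 2 to 8) in capitals, because the seed decides which messenger RNAs an arm can pair with.
mmu-miR-191-5p: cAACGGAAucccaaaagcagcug
mmu-miR-191-3p: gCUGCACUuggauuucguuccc
mmu-miR-425-5p: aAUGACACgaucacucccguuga
mmu-miR-425-3p: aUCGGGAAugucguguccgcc
The 4 seeds differ from each other. In RefSeq's mouse miRNAs, the seed of miR-425-5p is shared only with mmu-miR-489-3p, which had 1 count in all 23 libraries together, and the other 3 seeds are shared with no other mouse miRNA. Among RefSeq's mouse miRNAs the arms therefore belong to 4 separate seed families, although they derive from 2 precursors. Of the 1218 counted miRNAs, 1045 had a RefSeq sequence, and the seeds of the others were not compared.

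The 2 hairpins are printed with both arms in capitals, to show which stretches of a precursor the counted arms are.
Mir191: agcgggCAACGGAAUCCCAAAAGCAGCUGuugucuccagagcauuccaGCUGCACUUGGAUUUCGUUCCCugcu
Mir425: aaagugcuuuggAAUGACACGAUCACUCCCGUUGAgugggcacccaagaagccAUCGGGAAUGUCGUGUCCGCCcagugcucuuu
Mir191 lies at chr9:108568319-108568392 and Mir425 at chr9:108568777-108568861, both on the plus strand of GRCm38.p6, with 384 bases between them. In the fold that RNAfold computed, 17 bases of miR-191-5p paired with miR-191-3p and 14 bases of miR-425-5p with miR-425-3p. The annotations place the hairpins differently. The RefSeq span of Dalrd3, the gene usually named as their host, runs from 108567484 to 108572773 and contains both, whereas in GENCODE M21 Dalrd3 starts at 108569886, 1025 bases past the end of Mir425. GENCODE puts both hairpins inside the only exon of a long transcript of the noncoding gene 4833445I07Rik (108567533 to 108569174), and Mir191 also inside the intron of a shorter transcript. A further annotated miRNA gene, Gm24083 (108568295 to 108568414), overlaps Mir191 on the minus strand. The sources do not state whether reads were counted by strand, so reads of both strands cannot be told apart at Mir191.

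Total counts per library were 5242218 to 8139344 in the reference group, 4340903 to 7220112 in HFoleic and 3725432 to 4947990 in HFepa. The labels number the libraries 1 to 8 in the reference group, 9 to 15 and 23 in HFoleic and 16 to 22 in HFepa. Libraries 12 to 23 had lower totals (median 4513068.5 counts) than libraries 1 to 11 (median 6187441), and HFepa vs. reference is at the same time a comparison of high with low library numbers, so that group and number cannot be told apart there. The sources name no batch. No label sets the cut between libraries 11 and 12, so values and fits split there are a description of these libraries and no independent support. Reference library 5 held 2020 CPM (counts scaled to a common normalized library total) of the pancreatic islet miRNA miR-375-3p, against at most 57.3 CPM in any other library, and reference library 4 held 1885 CPM of miR-215-5p, against at most 45.2 CPM. The hepatocyte miRNAs miR-122-5p and miR-122-3p summed to 11490 to 24030 CPM over all libraries. All 4 arms passed edgeR's filter on low counts, as did 386 miRNAs in all. In a bulk sample, fewer cells of a type and less RNA per cell cannot be told apart.

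The guide arm miR-191-5p was by far the most abundant of the 4. Reference livers held 6658 ± 355 CPM (SD, n = 8), where the lowest library held 6197, the median 6616 and the highest 7439 CPM. In HFoleic it was 7601 ± 1117 CPM (SD, n = 8), with a lowest value of 6508, a median of 7411 and a highest value of 9800 CPM, and in HFepa 7700 ± 465 CPM (SD, n = 7), with 7105, 7577 and 8407 CPM. The groups overlapped, although 4 of 8 HFoleic and 4 of 7 HFepa libraries lay above the highest reference library. By mean level it ranked 24, 23 and 22 among the 386 tested miRNAs in reference, HFoleic and HFepa.

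The other guide arm, miR-425-5p, was counted in the reference group at 178 ± 15.8 CPM (SD, n = 8), between 164 and 212 with a median of 173 CPM. HFoleic livers held 191 ± 14.5 CPM (SD, n = 8), between 172 and 210 with a median of 188 CPM. HFepa livers held 192 ± 12.1 CPM (SD, n = 7), between 175 and 211 with a median of 193 CPM. No library of either high-fat group lay outside the range of the reference group, and its rank among the tested miRNAs was 110, 103 and 101.

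Both passenger arms were rare. In the reference group miR-191-3p stood at 7.08 ± 1.05 CPM (SD, n = 8), between 5.71 and 8.91 with a median of 7.08 CPM. HFoleic livers held 7.06 ± 0.561 CPM (SD, n = 8), between 6.28 and 7.81 with a median of 6.94 CPM, and HFepa livers 7.55 ± 1.96 CPM (SD, n = 7), between 4.25 and 9.97 with a median of 7.09 CPM. The 3 ranges overlapped, and HFepa held both the lowest and the highest of all values. The lowest count of miR-191-3p was 18 reads, in HFepa library 22, with an exact Poisson 95% interval of 10.7 to 28.4 reads, which covers counting error only.

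Of the 4 arms, only miR-425-3p, the passenger arm of Mir425, had 2 groups whose ranges did not overlap. Reference livers held 11.1 ± 1.56 CPM (SD, n = 8), with a lowest value of 8.66, a median of 11.1 and a highest value of 13.4 CPM. In HFoleic it was 7.94 ± 2.44 CPM (SD, n = 8), with 4.44, 7.73 and 12.8 CPM. In HFepa it was 5.57 ± 1.22 CPM (SD, n = 7), with 4.47, 5.19 and 7.85 CPM. All 7 HFepa libraries lay below all 8 reference libraries, while HFoleic overlapped both, with 6 of its 8 libraries below the lowest reference library. Of the 386 tested miRNAs, 4.66% had ranges that did not overlap between HFepa and reference, and 0% between HFoleic and reference. The counts behind these values ran from 112 reads in reference library 4 down to 17 reads in HFepa library 17, the latter with an exact Poisson 95% interval of 9.90 to 27.2 reads.

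The levels ordered the arms as miR-191-5p, miR-425-5p and then the 2 passenger arms in every group, read as CPM without a correction for ligation bias, which differs between miRNAs. The order of the passenger arms was not the same throughout. miR-425-3p had more reads than miR-191-3p in 8 of 8 reference libraries, in 5 of 8 HFoleic libraries, with 1 tie, and in 2 of 7 HFepa libraries. It had more in 11 of the 11 libraries numbered 1 to 11 and in 4 of the 12 numbered 12 to 23.

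**Figure D1:**
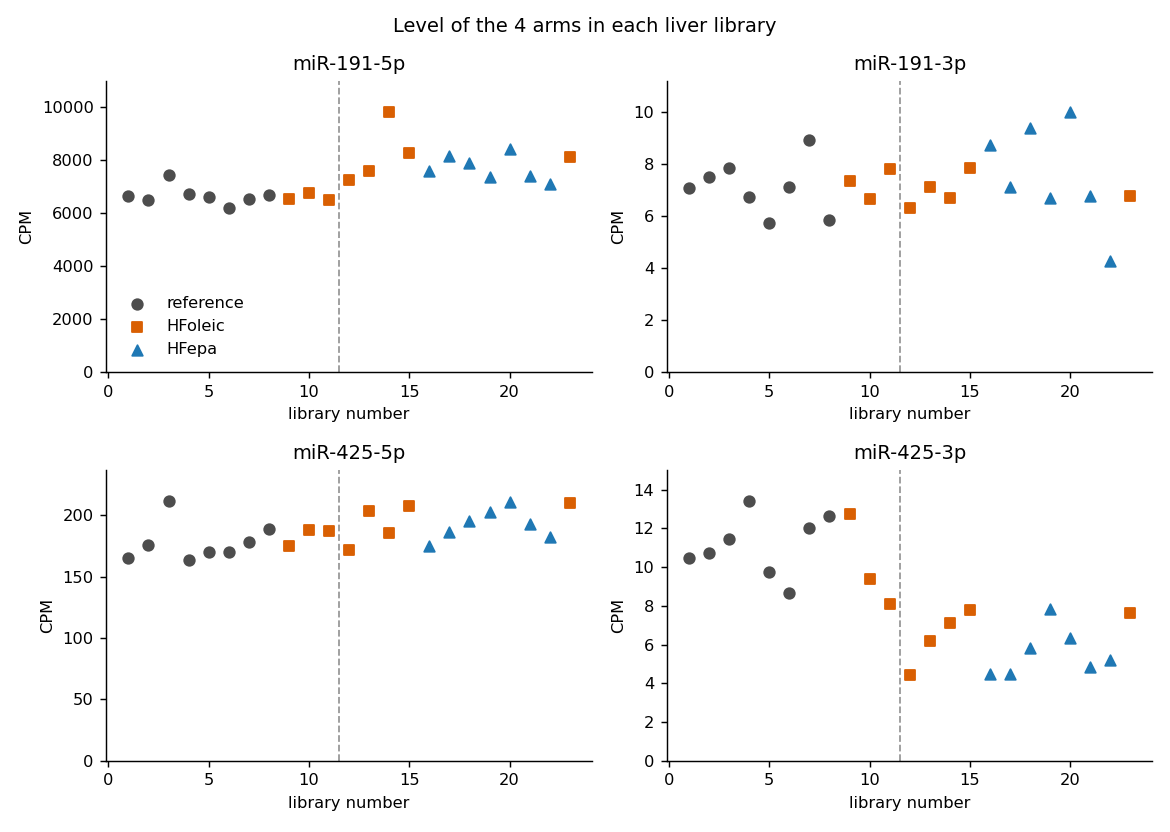
Level of each arm (CPM, y axis from 0) against the library number (x axis) in 8 reference, 8 HFoleic and 7 HFepa livers, 1 point per library; the dashed line separates libraries 1 to 11 from 12 to 23. miR-425-3p lies between 8.12 and 13.4 CPM left of the line and between 4.44 and 7.85 CPM right of it, while miR-425-5p stays between 164 and 212 CPM throughout. No label sets this line, and how many of all tested miRNAs also split there was not counted.

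The first question was how the high-fat diet alone, within the control lineage, went with these miRNAs. In HFoleic vs. reference, 0 of the 4 arms was called. A call needed an adjusted p under 0.05 (quasi-likelihood test of edgeR, Benjamini-Hochberg over all 386 miRNAs) and a log2 fold change of over 0.25 in size. Over all tested miRNAs 12.4% were called, 4.92% higher and 7.51% lower in HFoleic. Since miR-425-3p was chosen on HFepa vs. HFoleic, whose libraries also enter this comparison and the next, its p-values in them are not independent of the choice.

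For miR-425-3p, HFoleic differed from reference by a log2 fold change of -0.49 (SE 0.16, 95% interval -0.83 to -0.15), with an adjusted p of 0.0522 from edgeR. It was called when reference library 6 (-0.53), HFoleic library 9 (-0.62) or HFepa library 19 (-0.49) was left out, so single libraries decided on which side of the threshold it lay. The other 3 arms were miR-191-5p with 0.19 (SE 0.071, adjusted p = 0.0850), miR-425-5p with 0.10 (SE 0.064, adjusted p = 0.301) and miR-191-3p with -0.004 (SE 0.14, adjusted p = 0.999, all from the same edgeR fit). miR-191-5p was called without HFoleic library 10, with 0.25. The 95% interval of miR-425-5p was -0.03 to 0.23. The median log2 fold change of the 4 arms was 0.05, beside -0.002 over all tested miRNAs.

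In HFepa vs. reference, 1 of the 4 arms was called, miR-425-3p, which was lower in HFepa. Over all tested miRNAs 15.8% were called, 5.18% higher and 10.6% lower. The level of miR-425-3p fell by 0.997 on the log2 scale (SE 0.18, 95% interval -1.36 to -0.63, adjusted p = 0.00122, edgeR's quasi-likelihood test), to 0.501 times that of the reference group. By unadjusted p it stood in place 3 of the 386 miRNAs. It stayed called without each of the 23 libraries in turn, with log2 fold changes from -1.10 to -0.94, and without reference libraries 4 and 5 together, with -0.98 (edgeR, adjusted p = 0.00532). Leaving out libraries does not take up the library number. With a term for that number miR-425-3p had -0.39 and was not called (edgeR, adjusted p = 0.751).

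Both guides and the other passenger arm were not called in HFepa vs. reference. For miR-191-5p the log2 fold change was 0.21 (SE 0.073, 95% interval 0.06 to 0.36), with an adjusted p of 0.0495 from edgeR, and so it passed the p threshold but not that on the fold change. In alternative fits its adjusted p ran from 0.0061 (limma-voom) to 0.841 (edgeR with a term for the library number). With each library left out in turn, edgeR gave an adjusted p from 0.0241 to 0.117. miR-425-5p had 0.11 (SE 0.066, adjusted p = 0.290) and miR-191-3p had 0.09 (SE 0.14, adjusted p = 0.732, same edgeR fit). The median of the 4 was 0.10 and that of all tested miRNAs was -0.06.

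Between the high-fat groups, HFepa vs. HFoleic, the values are a description only, because this comparison was used to choose miR-425-3p. Over all miRNAs 0% were called by edgeR and 22 had an unadjusted p under 0.05, and limma-voom called 1 while DESeq2 and limma after quantile normalization called 0 each. The log2 fold change of miR-425-3p was -0.51 (SE 0.18), and by unadjusted p it stood in place 3 of 386. Those of miR-191-5p, miR-191-3p and miR-425-5p were 0.02 (SE 0.073), 0.10 (SE 0.14) and 0.01 (SE 0.066), in places 314, 198 and 354. These 3 arms thus lay within 1 standard error of no difference between the lineages.

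The library number was taken up next, since the HFoleic group has libraries on both sides of the cut between 11 and 12, which no label sets. Within HFoleic, miR-425-3p was 10.1 ± 2.40 CPM (SD, n = 3) in libraries 9, 10 and 11, with 12.8, 9.41 and 8.12 CPM, and 6.64 ± 1.38 CPM (SD, n = 5) in libraries 12 to 15 and 23, with 4.44, 6.21, 7.10, 7.81 and 7.64 CPM. Those 2 sets of one diet and one lineage did not overlap. How many of all tested miRNAs also split this way was not counted, and with sets of 3 and 5 libraries some would by chance. miR-191-5p differed within HFoleic as well, with 6598 ± 138 CPM (SD, n = 3) and 8203 ± 984 CPM (SD, n = 5). Its sets did not overlap either, with at most 6757 CPM in the former and at least 7244 CPM in the latter. For miR-425-5p the same libraries held 184 ± 7.26 and 196 ± 16.5 CPM, and for miR-191-3p 7.27 ± 0.579 and 6.94 ± 0.575 CPM, and in both cases the sets overlapped.

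With a term in the fit that separates libraries 1 to 11 from 12 to 23, the log2 fold change of miR-425-3p in HFepa vs. reference was -0.39 (SE 0.26, 95% interval -0.93 to 0.14, edgeR adjusted p = 0.751) and it was no longer called. In HFoleic vs. reference it was -0.14 (SE 0.19, adjusted p = 0.818) with the term and -0.13 (SE 0.17, adjusted p = 0.812, edgeR) in libraries 1 to 11 alone. In HFepa vs. HFoleic it was -0.25 (SE 0.17) with the term and -0.23 (SE 0.19) in libraries 12 to 23 alone. With this term miR-191-5p was -0.01 (SE 0.074) in HFoleic and -0.10 (SE 0.098) in HFepa against reference, opposite in sign to the fit without it. All of these values of miR-425-3p were negative and closer to 0 than those of the fit without the term. Diet and lineage on one side and the library number on the other cannot be told apart in HFepa vs. reference.

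**Figure D2:**
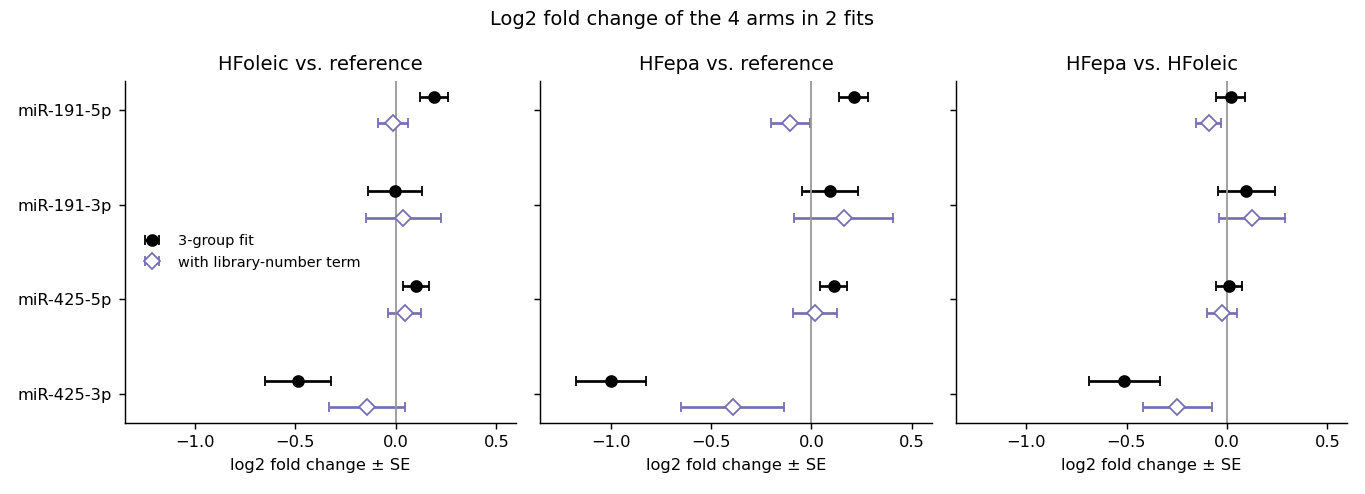
Log2 fold change with its standard error (x axis) of the 4 arms (y axis) in the 3 comparisons, from the 3-group fit (filled circles) and from the fit with a term for the library number (open diamonds). miR-425-3p moves from -0.997 to -0.39 in HFepa vs. reference, and miR-191-5p from 0.21 to -0.10.

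Both arms of a hairpin are cut from the same precursor, and their ratio within a library does not depend on how libraries are scaled. Mir191 was almost wholly represented by its guide, with 99.89% ± 0.016 (SD, n = 8) of its reads on the 5p arm in the reference group and medians of 945, 1061 and 1094 reads of miR-191-5p per read of miR-191-3p in reference, HFoleic and HFepa. Mir425 was less one-sided. Its 5p arm held 94.1% ± 0.856 (SD, n = 8) of the reads in the reference group, 96.0% ± 1.32 (SD, n = 8) in HFoleic and 97.2% ± 0.469 (SD, n = 7) in HFepa. Over all libraries the dominant arm held 99.9% of the Mir191 reads, place 7 among 100 hairpins with both arms tested, and 95.5% of the Mir425 reads, place 41, where the median hairpin had 93.7%.

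For Mir425, the reads of the 5p arm per read of the 3p arm were 12.2 to 19.7 (median 16.1) in the reference group, 13.7 to 38.7 (median 26.4) in HFoleic and 25.8 to 41.7 (median 35.2) in HFepa. All HFepa libraries lay above all reference libraries, which was so for 10% of the 100 hairpins in either direction, and 7 of 8 HFoleic libraries did. Between HFoleic and reference the ranges did not overlap for 1% of the hairpins, and Mir425 was not among them. As a log2 ratio, it was 3.998 ± 0.21 (SD, n = 8) in reference, 4.63 ± 0.45 (SD, n = 8) in HFoleic and 5.10 ± 0.23 (SD, n = 7) in HFepa. The difference to the reference group was 0.63 in HFoleic (exact permutation test, two-sided, p = 0.00435, adjusted p = 0.0131 over 6 ratio tests) and 1.11 in HFepa (p = 0.000155, the smallest that this exact test can give here, adjusted p = 0.000932). As the 3p arm was chosen on its low p-value in HFepa vs. HFoleic, these p-values are not independent of that choice.

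The log2 ratio of the 2 arms of Mir191 did not pass in either comparison, with 9.87 ± 0.22 (SD, n = 8) in reference, 10.04 ± 0.25 (SD, n = 8) in HFoleic and 10.02 ± 0.35 (SD, n = 7) in HFepa. Its differences to the reference group were 0.17 (exact permutation test, adjusted p = 0.252) and 0.14 (adjusted p = 0.368). The ratio of the 2 guides, miR-425-5p to miR-191-5p, was -5.23 ± 0.08 (SD, n = 8), -5.30 ± 0.19 (SD, n = 8) and -5.32 ± 0.09 (SD, n = 7) on the log2 scale. It differed from the reference group by -0.08 in HFoleic and -0.10 in HFepa (exact permutation test, adjusted p = 0.368 and 0.115). Without HFepa library 19 the latter was -0.12 and passed (exact permutation test, adjusted p = 0.0453).

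**Figure D3:**
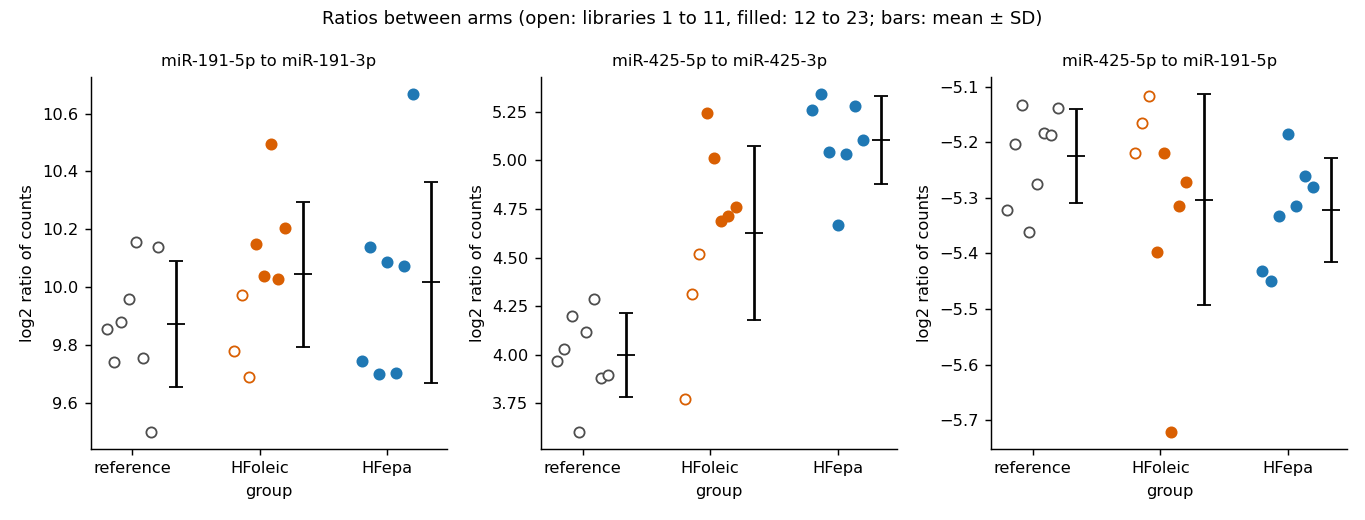
Log2 ratio of counts (y axis) for the 2 arms of Mir191, the 2 arms of Mir425 and the 2 guides, by group (x axis), 1 point per library, open for libraries 1 to 11 and filled for 12 to 23, with mean and SD beside each group. The Mir425 arm ratio runs from 3.603 to 4.29 in the reference group and from 4.67 to 5.34 in HFepa, and in this ratio the 3 open HFoleic points lie below the 5 filled ones.

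The Mir425 arm ratio also moved with the library number inside HFoleic. It was 4.20 ± 0.39 (SD, n = 3) on the log2 scale in libraries 9 to 11, from 3.77 to 4.52, and 4.88 ± 0.24 (SD, n = 5) in the other 5, from 4.69 to 5.25. In libraries 1 to 11 alone the difference between HFoleic and reference was 0.20 and did not pass (exact permutation test, adjusted p = 0.455). How many other hairpins split in this way inside HFoleic was not counted.

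The change of the arm ratio was set beside that of the other hairpins. Over the 100 hairpins whose 5p and 3p arms were both tested, the mean log2 arm ratio of Mir425 changed by 0.63 in HFoleic vs. reference, place 9 by size, where the median hairpin changed by 0.18 in either direction. In HFepa vs. reference its 1.11 was place 4 beside a median of 0.18. Mir191 was in places 53 and 61. Between HFepa and HFoleic, given as a description, Mir425 differed by 0.48, place 6 beside a median of 0.11, and Mir191 by -0.03, place 86. The 3p arm of Mir425 was chosen on this comparison, so a high place there follows in part from the choice. The places of Mir425 against reference share these libraries and are not independent of the choice. None of the places takes up the library number. Some of the 100 hairpins share the reads of an arm, such as miR-126a-5p with 17395.1 CPM and miR-126b-3p with 17395.2 CPM. The places, medians and shares over the 100 hairpins therefore hold some reads repeatedly.

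**Figure D4:**
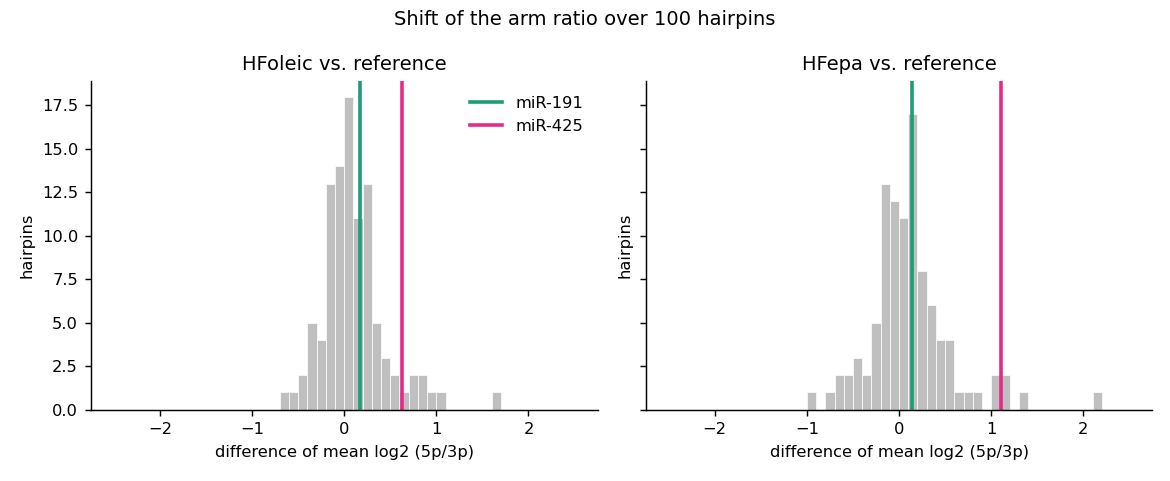
Number of hairpins (y axis) by the difference between groups of the mean log2 ratio of 5p to 3p counts (x axis) for 100 hairpins, in HFoleic vs. reference and HFepa vs. reference, with Mir191 and Mir425 marked. Mir425 is at 0.63 and 1.11, in the right tail of both, and Mir191 at 0.17 and 0.14, near the middle. The 3p arm of Mir425 was chosen on HFepa vs. HFoleic, so its position is not independent of the choice.

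How the 4 arms varied together was examined next, on log2 CPM after subtracting each group's mean, in 23 libraries. The 2 guides had a Pearson r of 0.43 (permutation p = 0.0482, adjusted p = 0.289 over 6 pairs) and a Spearman rho of 0.49 (permutation p = 0.0318, adjusted p = 0.191), and this did not pass the adjustment. Without the 2 libraries farthest from the median of miR-191-5p r was 0.64, and it was 0.72 in libraries 1 to 11 and 0.21 in libraries 12 to 23. For the 2 arms of Mir425 r was 0.22 (permutation p = 0.325, adjusted p = 0.487) and rho was 0.28 (adjusted p = 0.338), with r = 0.31 without the 2 farthest libraries, 0.01 in libraries 1 to 11 and 0.80 in libraries 12 to 23. For the 2 arms of Mir191 r was 0.19 (adjusted p = 0.478) and rho 0.27. None of the 6 pairs of arms passed by r or by rho with TMM factors. With library totals in their place, the r of the 2 guides was 0.69 and passed (permutation test, adjusted p = 0.0318). Library totals leave out the TMM factor of reference library 3, the highest of all (1.26), and r without that library was not computed in this setting.

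Several miRNAs had a higher correlation with each guide than the other guide had. Over the log2 CPM of the 23 libraries, given as a description since all values share the library totals and the groups, the miRNAs of at least 10 CPM with the highest Pearson r to miR-191-5p were miR-501-3p (0.86), miR-186-5p (0.86) and miR-100-5p (0.85), and miR-425-5p was in place 23 of 258 with 0.57. Those nearest to miR-425-5p were miR-27b-3p (0.82), miR-148b-3p (0.76) and miR-106b-5p (0.71), with miR-191-5p in place 9. For miR-191-3p, the highest values were 0.43 with miR-183-5p, 0.37 with miR-339-3p and 0.33 with miR-21a-3p.

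For miR-425-3p the nearest were miR-150-5p (0.76), a miRNA of lymphocytes, miR-98-3p (0.75), a let-7 family passenger arm, and miR-1843b-3p (0.74). Like miR-425-3p, each of them was called lower in HFepa vs. reference, miR-98-3p with a log2 fold change of -0.60 and miR-1843b-3p with -1.44 (edgeR). Its own guide was in place 187 of 259 with -0.21, beside an r of 0.22 after subtracting each group's mean. These places keep the differences between groups, so they are not independent of the choice of miR-425-3p. Of the 6 leukocyte miRNAs listed (miR-142a-5p, miR-142a-3p, miR-150-5p, miR-155-5p, miR-223-3p and miR-146a-5p), only miR-150-5p was called, and it was lower in both high-fat groups, with log2 fold changes of -0.94 in HFoleic (SE 0.23, adjusted p = 0.0174) and -1.40 in HFepa (SE 0.25, adjusted p = 0.00122, edgeR). The list summed to 1760 to 3556 CPM in reference, 1533 to 2439 in HFoleic and 1543 to 2445 in HFepa, with none of its miRNAs at 0 in all libraries and a median log2 fold change of -0.25 and -0.14. The part of leukocyte RNA in the level of miR-425-3p was not tested. Of the 4 red blood cell miRNAs listed, 0 were called in either comparison. These counts stand beside 12.4% and 15.8% called over all tested miRNAs, and no result about the lists is read from them. The lists of pancreas and of muscle and heart had 1 tested miRNA each, called lower in both comparisons, but single reference libraries held the high values. The summed level of the pancreas list reached 2021 CPM in the reference group, where its median was 17.2 CPM, beside medians of 15.6 CPM in HFoleic and in HFepa. That of the muscle and heart list reached 219 CPM in the reference group, where its median was 6.05 CPM, beside medians of 5.49 CPM in HFoleic and 4.31 CPM in HFepa.

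The use of both guides as reference miRNAs was set beside 14 other miRNAs that are also common in such qPCR panels. Over all 23 libraries, the coefficient of variation (CV) of CPM was 8.09% for miR-425-5p and 11.7% for miR-191-5p, place 6 and place 53 from the lowest of the 386 tested miRNAs, whose median was 24.8%. The places are not matched for level, and counting error adds more to the CV of miRNAs with few reads. The passenger arms had CVs of 17.2% (miR-191-3p) and 34.8% (miR-425-3p). These values pool the 3 groups and both ranges of library numbers, between which the mean of miR-191-5p differed, with 6642 CPM in libraries 1 to 11 and 7910 CPM in libraries 12 to 23. Within groups the order of the guides was not the same, since miR-191-5p had a CV of 5.33% in reference, 14.7% in HFoleic and 6.04% in HFepa, and miR-425-5p one of 8.85%, 7.56% and 6.30%. Among the 14 panel miRNAs, 2 had a lower CV than miR-425-5p and 9 a lower one than miR-191-5p. The lowest was 7.38%, for both miR-93-5p and miR-186-5p, and the highest 20.8%, for miR-423-3p.

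Neither guide was called in either comparison. In HFoleic vs. reference 1 of 14 was called, miR-25-3p with a log2 fold change of -0.26 (edgeR adjusted p = 0.0174). In HFepa vs. reference 2 of 14 were called, miR-25-3p with -0.30 (adjusted p = 0.00653) and miR-423-3p with -0.46 (adjusted p = 0.0243, edgeR). These counts are near the 12.4% and 15.8% called over all tested miRNAs and are no result about the panel. In HFepa vs. reference miR-16-5p, miR-26a-5p, miR-30e-5p and miR-361-5p passed the p threshold but not that on the fold change, as miR-191-5p did, with log2 fold changes from 0.20 to 0.23 (edgeR adjusted p from 0.0340 to 0.0449). None was called higher, and the medians of the 14 were 0.09 and 0.05.

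**Figure D5:**
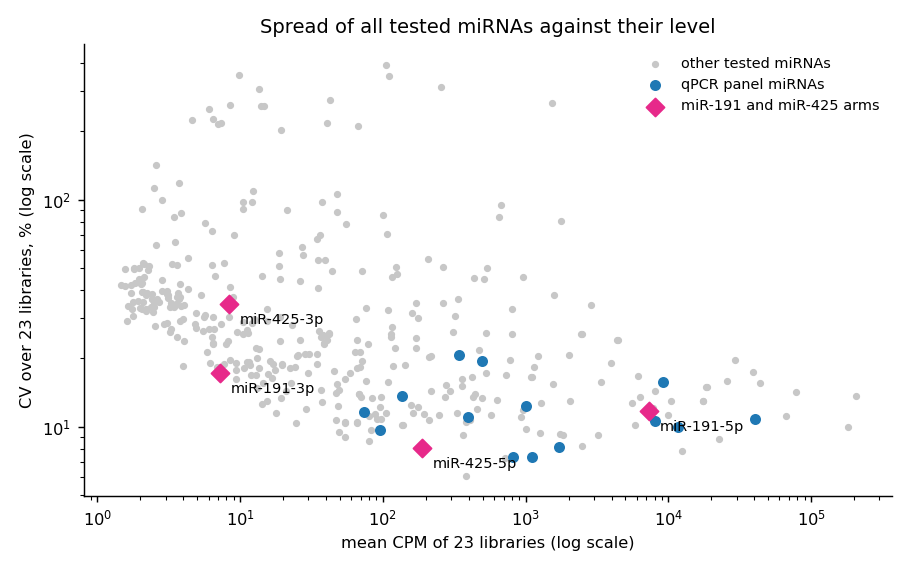
CV over 23 libraries (y axis, log scale, %) against mean CPM (x axis, log scale) for the 386 tested miRNAs, with the 4 arms of the locus (diamonds) and 14 qPCR panel miRNAs (large dots). miR-425-5p, at 8.09%, is near the lower edge of all points, and miR-425-3p, at 34.8%, is the most variable of the 4.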

How the data were processed

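Liver RNA of 23 mice, 1 library per mouse, was sequenced as small RNA with the TruSeq kit. The authors removed adapters, aligned reads with Bowtie in ncPRO-seq and deposited raw counts per mature miRNA, the unit used here. The methods name the genome as GRCm38.p6 and as mm9, and the submitters' notes name mm10; the counts carry no coordinates, and positions given are those of GRCm38.p6. The authors' size-factor values, fold changes and p-values were not used. The labels do not say which mice shared a litter.

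Groups came from the labels. The members and lists were chosen with earlier results of these data known. Named were the 4 arms, miRNAs sharing a seed, the 3 nearest by r to each arm, and panel miRNAs that were called or had the lowest or highest CV. Counts were filtered by filterByExpr, scaled by TMM and fitted by edgeR 4.0.16 (R 4.3.3) in 1 model of 3 groups; the methods name DEGseq, which takes reads as the error and was not run. CPM use TMM factors, log2 CPM a prior count of 2 and ratios a pseudocount of 0.5. Correlations used 100000 permutations within groups. Alternatives were DESeq2 1.42.0, limma 3.58.1, other factors and filters, library subsets and a library-number term. The fits were tested on simulated data first. The lowest chi-square between 2 libraries of a group was 31.9 per degree of freedom, so none was a repeat of another in its group. Pairs from different groups were not compared in this way. RNAfold 2.7.2 folded the hairpins, and 1045 of the 1218 names matched RefSeq. Counting intervals treat reads as molecules. Python 3.11.15 and matplotlib 3.10.9 drew the plots.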

Additional observations from a re-analysis of the deposited data

Results flagged for a closer look

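In the reference group, library 3 stood apart in the level of miR-191-5p, with 7439 CPM where the next highest library held 6733 CPM. Library 3 was also the highest of that group for miR-425-5p, with 212 CPM. In HFoleic, library 14 stood apart in the ratio of the 2 guides, with a log2 ratio of miR-425-5p to miR-191-5p of -5.72 against -5.40 in the next lowest library. That library held 9800 CPM of miR-191-5p, the highest level of all 23 libraries, and 186 CPM of miR-425-5p, near the middle of its group. These are 2 of 21 sets of values examined for a library far from the others by Dixon's criterion, which chance passes in about 1 of 20 sets.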

How the results depend on the processing

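The fall of miR-425-3p in HFepa vs. reference held in 9 of 10 alternatives and was lost with the library-number term (-0.39); the arm ratio of Mir425 in HFepa passed in both alternatives run, neither of which takes up the library number, and within HFoleic that ratio was 4.20 in libraries 9 to 11 and 4.88 in the others, beside 5.10 in HFepa. In HFoleic vs. reference miR-425-3p was also called with library size in place of TMM (-0.56), limma-voom (-0.53) and at least 10 counts in every library (-0.49), with -0.62 to -0.40 as each library was left out; its arm ratio no longer passed in libraries 1 to 11 alone (0.20). The log2 fold change of miR-191-3p in HFoleic vs. reference changed sign with upper-quartile factors (0.0482), quantile normalization (0.0899), the library-number term (0.0375) and libraries 1 to 11 alone (0.0443), and ran from -0.0662 to 0.0764 with 1 library left out. That of miR-191-5p changed sign with the term (-0.0132 in HFoleic, -0.10 in HFepa) and in libraries 1 to 11 alone (-0.00553), and ran from 0.12 to 0.25 in HFoleic with 1 library left out. In libraries 1 to 11 alone, the difference between HFoleic and reference was -0.0595 for the ratio of the Mir191 arms and 0.0584 for that of the guides. Without reference libraries 4 and 5 the ratio of the guides in HFepa passed (-0.13), and with 1 library left out it ran from -0.12 to -0.0753. With library totals in place of TMM, the r of miR-191-5p with miR-425-3p was 0.10 in place of -0.19, and that of the 2 guides was 0.69 and passed (permutation test, adjusted p = 0.0318). The limit given above for reference library 3 applies to both.

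The background counts of called miRNAs moved more. In HFoleic vs. reference they were 25 with DESeq2, 10 with quantile normalization, 31 with limma-voom, 29 with no filter, 7 with the 2 groups alone, 1 with the term, 0 of 409 in libraries 1 to 11 alone (edgeR; 28 at an unadjusted p under 0.05) and 6 without reference libraries 4 and 5, beside 48. In HFepa vs. reference they were 24 with quantile normalization, 40 with the 2 groups alone, 0 with the term (16 at an unadjusted p under 0.05) and 30 without libraries 4 and 5, beside 61. Leaving out each library gave 12 to 53 calls in HFoleic vs. reference (12 without reference library 5, 24, 21 and 20 without HFoleic libraries 13, 14 and 15), 32 to 66 in HFepa vs. reference (36 without reference library 5, 38 without HFepa library 16 or 18, 32 without 22) and 0 to 1 between the high-fat groups, where 1 was called without HFepa library 19 and 1 by limma-voom. Library size in place of TMM moved the median of all miRNAs to -0.12 in HFepa vs. reference, with miR-425-3p at -1.05. Depth limits the passenger arms most: miR-425-3p had 17 to 35 reads in each of libraries 12 to 23. No paired analysis was run, because the groups are different mice and the labels name no matched pairs.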
